A study of Rattus norvegicus with 16 samples.

Results

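DNA replication in S phase was followed through 49 genes of the replication machinery: the factors that license and fire origins, the polymerases and primase, the sliding clamp and its loader, the enzymes that join the lagging strand and supply deoxynucleotides, the E2F factors and cyclin E, and histone deposition onto new DNA. A gene was taken where a transcript cluster of the arrays (a set of probes for one transcript unit) carried its symbol in the platform annotation. This gave 43 of the 49 genes, among 15037 named genes and 23188 clusters in all, and each of the 43 had 1 cluster. The remaining 6 (Mcm5, Rpa1, E2f2, E2f8, Uhrf1 and Chaf1a) had no cluster of that name and were not analysed here.

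INS1 β cells, here the 832/13 clone of a rat insulinoma line, were transduced with a lentivirus that expressed GFP, the control (8 arrays), or Pax5, a transcription factor of B lymphocyte development (8 arrays). The arrays of both groups are numbered by experiment from 1 to 8, so that each Pax5 array was compared with the GFP array of its own experiment. Both viruses were given at a multiplicity of infection of 1.25 for 24 hours in 11.1 mM glucose, and cells were collected at 72 hours. The human phosphoglycerate kinase 1 promoter drove Pax5 in such viruses, and the promoter of the GFP virus is not given in the sources used here. All arrays therefore come from transduced cells of one clonal tumour line, and arrays of cells without virus were not analysed here. Nothing in the labels says whether the experiments were separate passages, so the p-values measure the spread between these experiments.

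Replication starts when the origin recognition complex, with Cdc6 and Cdt1, loads the ring of Mcm2 to Mcm7 onto DNA in G1. At the start of S phase Cdc45 and the GINS complex join the ring and turn it into the active helicase. Polymerase α with primase lays down primers, polymerases ε and δ extend the leading and lagging strands on the Pcna clamp, and Fen1 and Lig1 process and seal the Okazaki fragments. Many of these genes are transcribed in late G1 and S phase under E2F factors. Adult β cells rarely divide, whereas INS1 β cells are a dividing line.

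The E2F site is an element known from many promoters of replication genes. Many of the genes are known to be transcribed under E2F factors, so a high share of matches is no independent result. Matches were looked up in RefSeq promoters (assembly GRCr8, 250 bases before to 50 bases after a gene's start), which held 40 of the 49 genes. The letters searched were TTTCCCGC, TTTCGCGC, TTTGCCGC and TTTGGCGC on both strands, and a gene was counted once even where a match read the same on both strands. They stood in 16 of the 40 replication genes (40.0%) and in 651 of all 27457 genes of the table (2.37%). A CCAAT box (the letters CCAAT) stood in 24 of the 40 (60.0%) against 39.6% of all genes, and a CHR element (TTTGAA or TTCGAA), known from genes of late cell cycle, in 7 (17.5%) against 21.0%. Shown here are 5 promoters with an E2F match: those of the 3 genes with the lowest p among the genes that were higher with Pax5, Mcm2 (chr4:122918045-122918344, minus strand), Tyms (chr9:120776034-120776333, minus strand) and Mcm3 (chr9:30733697-30733996, minus strand), and those of both genes that were lower, Gins3 (chr19:9434630-9434929, minus strand) and Rfc3 (chr12:5836318-5836617, plus strand). Capitals mark the E2F letters and all else is in lower case.
Mcm2: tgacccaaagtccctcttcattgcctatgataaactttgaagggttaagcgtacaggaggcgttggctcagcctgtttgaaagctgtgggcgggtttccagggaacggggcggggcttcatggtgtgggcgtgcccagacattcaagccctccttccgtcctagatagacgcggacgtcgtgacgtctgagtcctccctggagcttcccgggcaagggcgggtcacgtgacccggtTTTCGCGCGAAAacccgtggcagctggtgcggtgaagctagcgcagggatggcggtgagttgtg
Tyms: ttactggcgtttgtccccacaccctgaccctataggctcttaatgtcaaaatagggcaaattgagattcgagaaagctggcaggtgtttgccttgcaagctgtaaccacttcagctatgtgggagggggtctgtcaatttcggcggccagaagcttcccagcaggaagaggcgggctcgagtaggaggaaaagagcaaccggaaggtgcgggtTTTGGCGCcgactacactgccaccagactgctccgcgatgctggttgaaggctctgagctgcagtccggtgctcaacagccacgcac
Mcm3: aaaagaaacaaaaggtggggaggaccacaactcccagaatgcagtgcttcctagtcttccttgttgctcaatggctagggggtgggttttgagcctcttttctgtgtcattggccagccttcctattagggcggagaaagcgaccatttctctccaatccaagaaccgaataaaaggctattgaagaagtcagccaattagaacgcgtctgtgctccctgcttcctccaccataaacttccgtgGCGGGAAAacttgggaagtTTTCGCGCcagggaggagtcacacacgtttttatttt
Gins3: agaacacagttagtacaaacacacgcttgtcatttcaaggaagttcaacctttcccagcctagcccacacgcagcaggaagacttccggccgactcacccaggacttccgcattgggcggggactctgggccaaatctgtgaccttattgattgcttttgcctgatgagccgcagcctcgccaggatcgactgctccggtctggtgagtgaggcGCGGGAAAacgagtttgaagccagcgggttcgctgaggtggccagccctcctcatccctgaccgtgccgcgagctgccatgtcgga
Rfc3: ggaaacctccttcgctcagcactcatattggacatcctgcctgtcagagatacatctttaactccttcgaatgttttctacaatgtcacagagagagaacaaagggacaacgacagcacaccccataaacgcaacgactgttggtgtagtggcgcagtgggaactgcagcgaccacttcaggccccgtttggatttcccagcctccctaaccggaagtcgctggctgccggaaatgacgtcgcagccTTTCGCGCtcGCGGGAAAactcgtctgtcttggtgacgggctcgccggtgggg

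E2F letters were thus found on both sides of the comparison. Of the genes with a promoter in the table, they stood in 6 of 11 that were higher with Pax5 (Mcm2, Mcm3, Mcm6, Pola1, Lig1 and Tyms), in 2 of 6 that were lower, in 6 of 19 that did not pass the test (Mcm7, Cdt1, Gins1, Pole, Pole2 and Rpa2) and in 2 of 4 without a cluster (Mcm5 and Uhrf1). In Mcm2 the match lay 14 bases before the start, in Tyms 37 bases and in Gins3 36 bases before it. A match is a description of the letters in this window and not a bound site.

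Values are log2 expression, so that a difference of 1 is a 2-fold change, and all differences below are Pax5 minus GFP. The 16 arrays had medians between 6.98 and 7.01, and no 2 arrays correlated below 0.989. Pax5 itself read 7.93 ± 0.41 with GFP and 17.26 ± 0.19 with Pax5 (SD, n = 8 each). Of 10 β cell markers 7 were measured, at GFP means from 9.21 to 18.39, and 2 of them passed the test, Iapp at 0.46 and Slc2a2 at -0.95. The α cell hormone Gcg also read high in this line, 17.35 with GFP, and was higher with Pax5 by 0.74. Another 19 markers of δ, PP, acinar, duct, fibroblast, endothelial and white blood cells lay at means from 4.10 to 6.24 and 0 passed the test in limma or in the paired test per cluster, with 4 at an unadjusted p under 0.05. Their mean level was 5.07 to 5.13 over the GFP arrays and 5.13 to 5.18 over the Pax5 arrays, and its part in the results was not tested.

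Replication genes moved in both directions with Pax5. Most Mcm genes, Fen1, Rfc1, Ccne2 and the nucleotide genes Tk1, Tyms and Rrm1 were higher, whereas Orc1, Orc2, Orc6, Cdc45, Gins3, Rfc3 and Rfc4 were lower. Of the 43 genes 13 were higher and 7 lower (limma, adjusted p under 0.05 over all clusters), and 23 did not pass. The called share, 46.5%, compares with 30.7% of all clusters and 32.4% of named genes. Most replication genes are bright on these arrays, with a median level of 11.39 against 7.002 over all clusters. Among the 4876 clusters between their brightness quartiles (9.43 to 12.34, a band chosen after the values were seen) 49.3% were called. By this measure they were called about as often as other clusters of their brightness. The split by direction was 30.2% higher and 16.3% lower, beside 14.6% and 16.1% of all clusters and 22.5% and 26.8% of those in the band. The median difference was 0.08 over the 43 genes and 0.00 over all clusters. No replication gene reached a difference of 1, and 7 reached 0.5: Fen1, Tk1, Tyms, Mcm2 and Rfc1 upward, Gins3 and Orc2 downward.

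**Figure D1:**
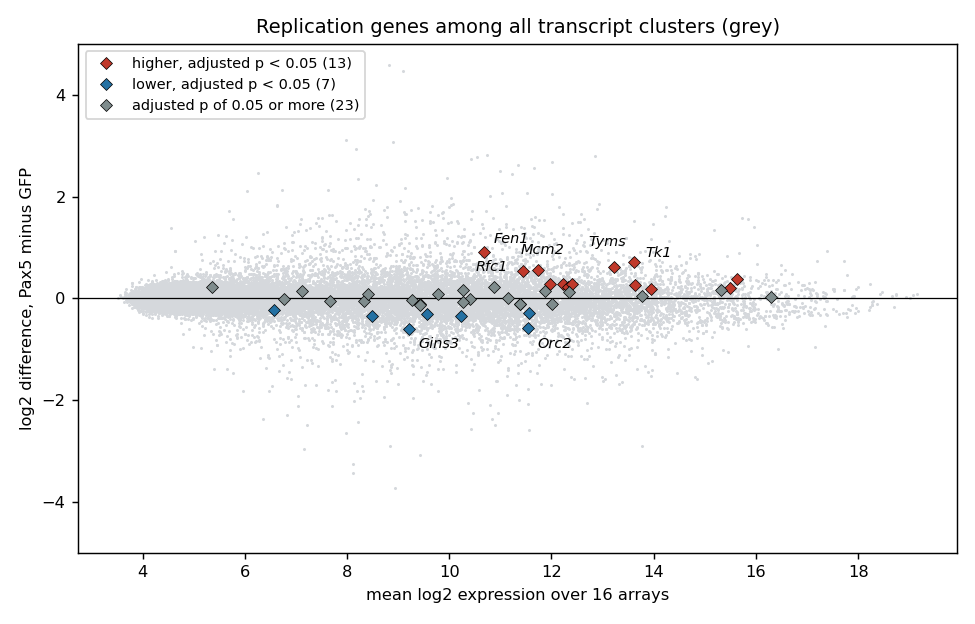
Each grey point is a transcript cluster, placed by its mean log2 expression over 16 arrays and its log2 difference, Pax5 minus GFP; diamonds are the 43 replication genes, coloured by call, and the Pax5 cluster itself is left off. The 13 higher and 7 lower genes lie between -0.59 and 0.92, well inside the cloud of all clusters.

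The direction was the same in all 8 experiments for 11 genes that were higher and 3 that were lower, where 9.79% and 10.6% of all clusters did so. In the same 11 and 3 genes the 8 Pax5 arrays did not overlap the 8 GFP arrays, as in 8.08% of all clusters upward and 8.62% downward. These shares are over clusters of any brightness. Shares among clusters as bright as the replication genes were not computed, so no excess is read from them. In the deposited values same-numbered arrays of the groups move in opposite directions, so ranges, SDs and the absence of overlap describe these values and may understate the spread between cultures, which was not tested. For each of these 14 genes an exact 2-sided permutation test that flips the signs of the differences gave p = 0.00781. That is the smallest p that 8 experiments allow. Any gene with the same sign in all 8 experiments gets it, so it restates the shared sign and is no further support. RNA came from whole cultures, so a change in the share of cells in S phase and a change in RNA per cell cannot be told apart.

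**Figure D2:**
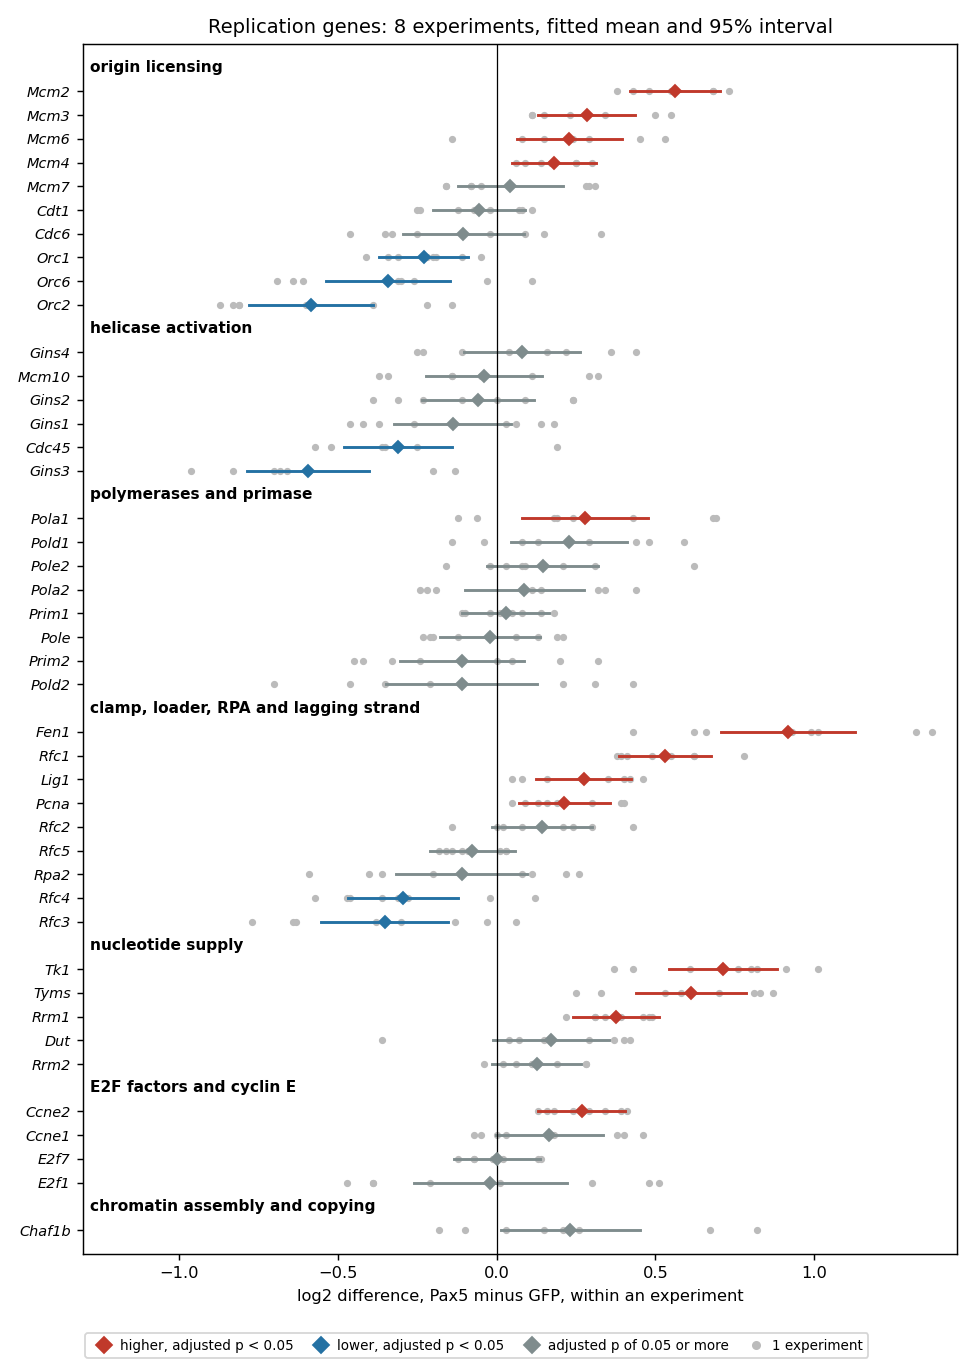
Log2 difference, Pax5 minus GFP, for each of the 43 replication genes by role: grey points are the 8 experiments, diamonds the fitted means and lines their 95% intervals. Fen1, Tk1 and Tyms lie farthest to the right of 0, Gins3 and Orc2 farthest to the left, and the intervals of most polymerase genes cross it.

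In origin licensing, Mcm2, Mcm3, Mcm4 and Mcm6 of the Mcm ring were higher and Orc1, Orc2 and Orc6 of the origin recognition complex lower. Of its 10 measured genes 4 were higher and 3 lower (40% and 30%), with a median difference of -0.01. Beside the counts of this and each later role, 14.6% of all clusters were higher and 16.1% lower. In the brightness band these shares were 22.5% and 26.8%. Each role holds few genes, so no excess is read from its counts. The ring of Mcm2 to Mcm7 was higher in 4 of 5 measured genes (median 0.23), while Orc1, Orc2 and Orc6 had a median of -0.34. With the subunits outside the 49 genes, 4 of the 6 subunits of the origin recognition complex were lower and 2 did not pass (median -0.28 over the 6). Mcm2, the subunit that also handles parental histones, read 11.32, 11.48 and 11.57 with GFP (lowest, median and highest of 8 arrays, as for every gene below) and 11.95, 12.03 and 12.10 with Pax5. No Pax5 array overlapped a GFP array. Mcm2 was higher by 0.56 ± 0.067 (SE), or 1.48-fold (adjusted p = 9.3e-06). Mcm3, another subunit of the ring, read 11.92, 12.09 and 12.23 with GFP and 12.27, 12.35 and 12.49 with Pax5. The groups again did not overlap, by the small margin between 12.23 and 12.27. Its difference was 0.28 ± 0.072, or 1.22-fold (adjusted p = 0.0065). Mcm6 differed by 0.23 and Mcm4 by 0.18 (adjusted p = 0.034 and 0.039). Mcm4 did not overlap between groups and was higher in 8 of 8 experiments, yet its call was lost without experiment 1, 2, 3, 4, 5 or 7, with an adjusted p up to 0.094. The call of Mcm6 was lost without experiment 2, 3, 4, 5 or 8, with an adjusted p up to 0.096. Without experiment 2, 3, 4 or 5 the licensing genes counted as higher therefore numbered 2. Mcm7 differed by 0.04 (adjusted p = 0.72), with a 95% interval from -0.12 to 0.21.

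Orc2, a core subunit of the origin recognition complex, read 11.50, 11.88 and 12.09 with GFP and 11.09, 11.24 and 11.40 with Pax5. Every Pax5 array lay below every GFP array. It was lower by 1.50-fold, a difference of -0.58 ± 0.092 (adjusted p = 1.5e-04). Orc1, the subunit whose level cycles in human cells, read 6.56, 6.68 and 6.81 with GFP and 6.38, 6.47 and 6.51 with Pax5. These groups did not overlap either, and the difference was -0.23 ± 0.066, or 1.17-fold lower (adjusted p = 0.014). Orc6 was lower in 7 of 8 experiments, at -0.34 (adjusted p = 0.0093). Of the subunits outside the 49 genes, Orc4 was lower at -0.43 (adjusted p = 0.0045), in 6 of 8 experiments. Orc3 and Orc5 did not pass, at -0.02 and -0.0038 (adjusted p = 0.86 and 0.98), and were higher in 5 and 4 of 8 experiments. The loaders Cdc6 and Cdt1 differed by -0.11 and -0.06 (adjusted p = 0.42 and 0.60), each lower in 5 of 8 experiments.

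**Figure D3:**
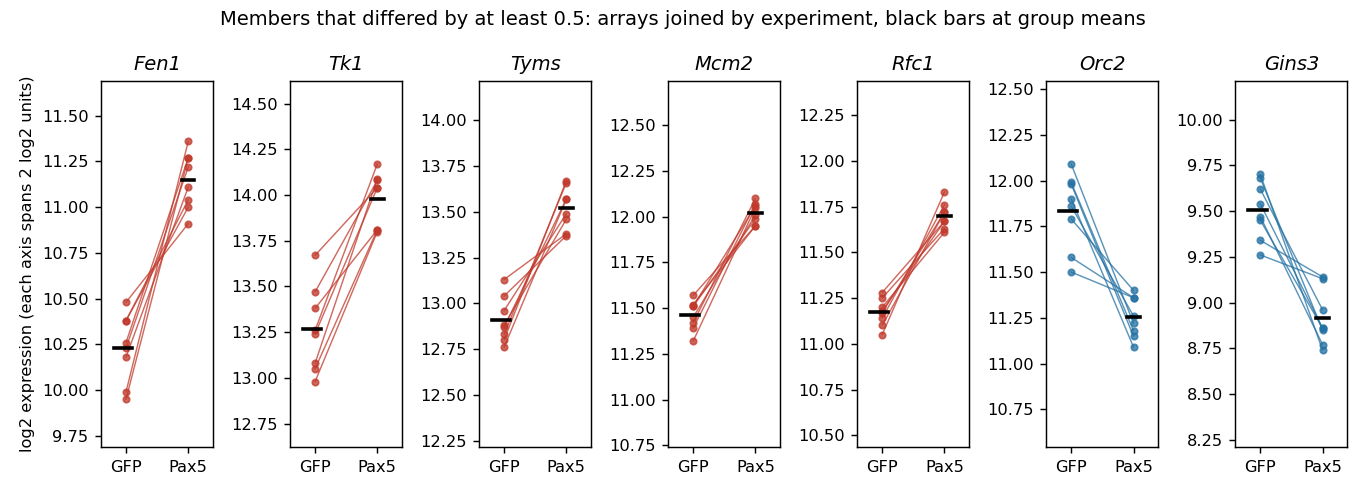
Log2 expression of the 7 replication genes that differed by at least 0.5, with a line for each of the 8 experiments and black bars at the group means; every axis spans the same range of log2 units. In all 7 genes the GFP and Pax5 arrays do not overlap, as with Fen1 at 9.95 to 10.48 against 10.91 to 11.36. The 7 were picked by the size of their difference, which favours this, and the share among clusters with such differences was not computed. The ranges may understate the spread between cultures.

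None of the 6 helicase activation genes was higher and 2 were lower (33.3%, beside 26.8% of clusters in the brightness band). Both are partners that bind the Mcm ring, and the median over the 6 genes was -0.10. By limma, 0 were higher also at an unadjusted p under 0.05, and 0 in the paired test per cluster. Gins3, a subunit of the GINS complex, read 9.26, 9.51 and 9.70 with GFP and 8.74, 8.86 and 9.14 with Pax5. The groups did not overlap, and Gins3 was the most lowered of the 43 genes, at -0.59 ± 0.091 or 1.51-fold lower (adjusted p = 1.1e-04). Cdc45 was lower by 1.24-fold, at -0.31 (adjusted p = 0.0078), in 7 of 8 experiments. The exception was experiment 8, where it was higher by 0.19. The other GINS subunits did not pass: Gins1 differed by -0.14, Gins2 by -0.06 and Gins4 by 0.08. Mcm10, which helps the helicase start, differed by -0.04. Their adjusted p ran from 0.26 to 0.77, and their 95% intervals lay between -0.32 and 0.26. The difference between Gins3 and the other subunits was not itself tested.

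Of 8 genes of the polymerases and primase 1 passed (12.5%), the catalytic subunit of polymerase α, Pola1. Pola1 was higher by 0.28 or 1.21-fold (adjusted p = 0.033) in 6 of 8 experiments. Its call was lost without experiment 3, 4, 5 or 6, with an adjusted p up to 0.099. The accessory subunit Pola2 differed by 0.09, and the primase subunits Prim1 and Prim2 by 0.03 and -0.11. Prim1 was the brightest of the 43 genes, at a mean of 16.29 against 12.02 for Prim2. Why its cluster read so bright was not tested. For polymerase δ, the catalytic Pold1 differed by 0.23 (adjusted p = 0.056, higher in 6 of 8 experiments) and passed without experiment 2 or 5. Pold1 was the dimmest of the 43 genes, at a mean of 5.36. That level lies among those of the markers of other cell types (4.10 to 6.24). Pold2 differed by -0.11. For polymerase ε, Pole differed by -0.02 and Pole2 by 0.15. Over the 7 genes that did not pass, the 95% intervals lay between -0.35 and 0.41, so their missing calls do not show that these genes were unchanged. The genes counted as lower were 0 in limma, 0 at an unadjusted p under 0.05 and 0 in the paired test per cluster. Leaving out experiment 3, 4 or 6 left 0 higher polymerase genes, and leaving out experiment 2 gave 2.

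The clamp, its loader and the lagging strand enzymes held both the largest rise and 2 of the falls. Of 9 measured genes 4 were higher and 2 lower (44.4% and 22.2%), with a median of 0.14. Fen1, the nuclease that trims flaps from Okazaki fragments, read 9.95, 10.25 and 10.48 with GFP and 10.91, 11.17 and 11.36 with Pax5. The lowest Pax5 array exceeded the highest GFP array by more than either group's SD. Fen1 was higher by 0.92 ± 0.099, or 1.89-fold (adjusted p = 3.5e-06), the most of the 43 genes. Lig1, the ligase that seals the fragments Fen1 has trimmed, read 11.73, 11.79 and 11.97 with GFP and 11.98, 12.10 and 12.20 with Pax5. The arrays did not overlap, but narrowly, at 11.97 for the highest GFP array and 11.98 for the lowest Pax5 array. Its difference was 0.27 ± 0.070, or 1.21-fold (adjusted p = 0.0072). Pcna, the sliding clamp, read 15.28, 15.40 and 15.50 with GFP and 15.53, 15.57 and 15.71 with Pax5. It too did not overlap, and was higher by 0.21 ± 0.067, or 1.16-fold (adjusted p = 0.024). The call of Pcna was lost without experiment 2, 4 or 8, with an adjusted p up to 0.068.

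Subunits of the clamp loader, replication factor C, were called in both directions. Its large subunit Rfc1 read 11.05, 11.18 and 11.28 with GFP and 11.61, 11.70 and 11.83 with Pax5. No array overlapped, and Rfc1 was higher by 0.53 ± 0.068, or 1.44-fold (adjusted p = 2.0e-05). The small subunits Rfc3 and Rfc4 were lower, at -0.35 and -0.29 (adjusted p = 0.0092 and 0.012), each in 7 of 8 experiments. Rfc2 differed by 0.14 and Rfc5 by -0.08, and neither passed. Rpa2, a subunit of the complex that coats single-stranded DNA, differed by -0.11 (adjusted p = 0.43).

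Nucleotide supply was the role in which the measured genes lay highest, with a median of 0.38. In limma 3 of 5 genes were higher (60%) and 0 lower, and 0 were lower at an unadjusted p under 0.05 or in the paired test per cluster. Tk1, the thymidine kinase of the salvage route, read 12.98, 13.25 and 13.67 with GFP and 13.80, 14.04 and 14.17 with Pax5. The groups did not overlap, and Tk1 was higher by 0.71 ± 0.080, or 1.64-fold (adjusted p = 5.2e-06). Tyms, which makes thymidylate from deoxyuridylate, read 12.76, 12.88 and 13.13 with GFP and 13.37, 13.53 and 13.67 with Pax5. All Pax5 arrays lay above all GFP arrays, and the difference was 0.61 ± 0.081, or 1.53-fold (adjusted p = 2.8e-05). Rrm1, the large subunit of ribonucleotide reductase, read 15.38, 15.42 and 15.57 with GFP and 15.73, 15.81 and 15.90 with Pax5. It was higher without overlap, by 0.38 ± 0.064 or 1.30-fold (adjusted p = 2.8e-04). Rrm2, the small subunit whose level cycles with S phase, differed by 0.13 (95% interval -0.01 to 0.27) and was higher in 7 of 8 experiments. Dut, which removes dUTP, differed by 0.17 (95% interval -0.01 to 0.36), also higher in 7 of 8; its exception was experiment 1, at -0.36, and it passed without that experiment.

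Among the E2F factors and cyclins E, 1 of 4 measured genes passed (25%). Ccne2, which drives the kinase Cdk2 at the entry into S phase, read 13.41, 13.51 and 13.62 with GFP and 13.68, 13.78 and 13.83 with Pax5. It did not overlap and was higher by 0.27 ± 0.064, or 1.20-fold (adjusted p = 0.0047). Ccne1 differed by 0.17 (adjusted p = 0.13). The activator E2f1 differed by -0.02 and the repressor E2f7 by 0.00 (adjusted p = 0.92 and 0.99), and both lay on either side of 0 across experiments. Chaf1b, a subunit of the chaperone that deposits histones on new DNA, differed by 0.23 (adjusted p = 0.10) and passed without experiment 7.

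Experiment 8 held the most genes that were higher. In it 37 of the 43 genes were higher with Pax5, with a median of 0.26, whereas experiments 1 to 7 had 20 to 27 higher and medians from -0.04 to 0.13. The median over all clusters in experiment 8 was -0.01. Without experiment 8, 11 genes were higher and 7 lower. The Mcm ring had a median above 0 in each of the 8 experiments (0.08 to 0.45), as did nucleotide supply (0.22 to 0.49), and Orc1, Orc2 and Orc6 together had one below 0 in each (-0.64 to -0.20). Mcm2, Mcm3 and Mcm4, Tk1, Tyms and Rrm1, and Orc1 and Orc2 each kept their sign in all 8 experiments. They make up most of their groups, so the signs of these medians were fixed by them and are no further support. Over all 6 Orc subunits the medians were nearer to 0, from -0.415 to -0.065. Helicase activation was below 0 in 7 experiments and above it in experiment 8, and the polymerases ranged from -0.10 to 0.26. Within an experiment the GFP and Pax5 arrays mirrored each other: over the 8 experiments, the levels of a gene in the GFP and in the Pax5 array correlated at a median of -0.74 and below 0 for 40 of the 43 genes. The points behind each of these correlations share an experiment, and the values are given as a description.

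**Figure D4:**
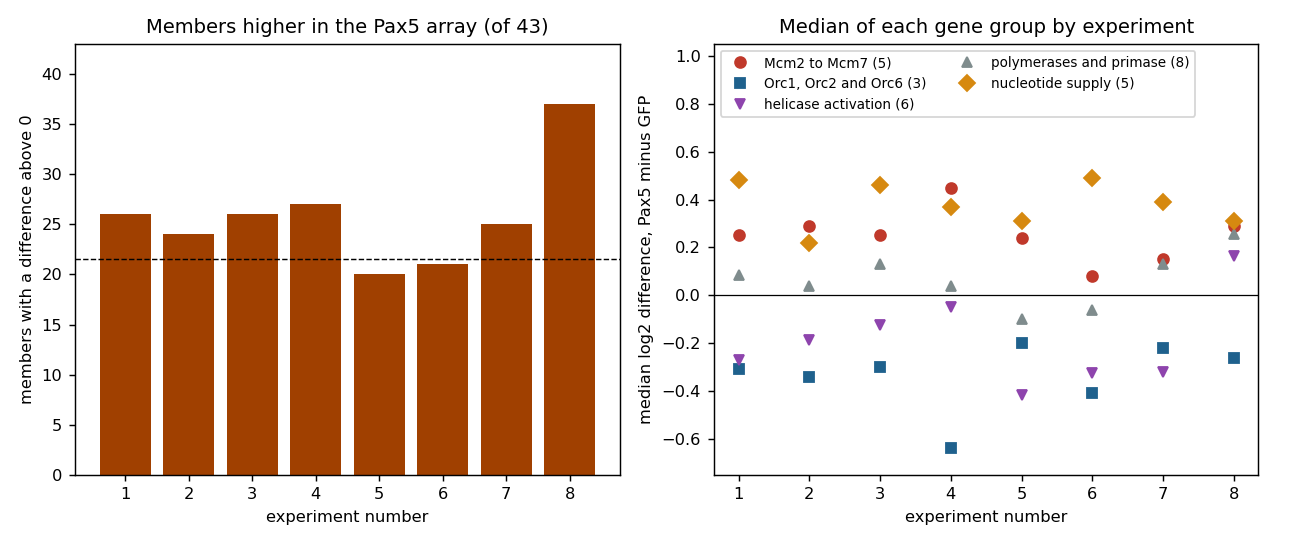
Left, the number of the 43 replication genes with a difference above 0 in each experiment, with a dashed line at 50% of them. Right, the median log2 difference, Pax5 minus GFP, of 5 gene groups in each experiment, with the number of genes in brackets. Experiment 8 has 37 genes higher. The medians of the Mcm ring and of Orc1, Orc2 and Orc6 stay on their own sides of 0 in all 8, which restates the shared signs of single genes.

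Related genes outside the 49 were read from lists of the same pathways. Beside the shares given for each list, 14.6% of all clusters were higher and 16.1% lower. In the brightness band of the replication genes these shares were 22.5% and 26.8%. Of 24 measured origin and fork factors 1 was higher and 5 lower (4.2% and 20.8%). Donson, a fork protection factor that also takes part in loading the GINS complex, was higher by 0.62, while Dbf4, the activating partner of the kinase that fires origins, differed by -0.60 (lower), and Pole3 and Mcm8 both by -0.44 (lower). Without experiment 1 the higher genes of this list numbered 4. The adjusted p of these 4 named genes ran from 9.9e-06 to 8.9e-04.

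The called genes of wider nucleotide metabolism were mostly lower. Of 19 measured genes of purine, pyrimidine, folate and salvage routes 1 was higher and 7 lower (5.3% and 36.8%). Ppat and Gart, enzymes of purine synthesis, differed by -0.47 and -0.48, and Ctps1, which makes CTP, by -0.37 (adjusted p = 1.8e-04, 4.8e-04 and 0.0011). The 1 riser was Rrm2b, the p53-inducible small subunit of ribonucleotide reductase, at 0.48 (adjusted p = 4.3e-04) and higher in 8 of 8 experiments.

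Of 18 measured regulators of the G1 to S transition 4 were higher and 5 lower (22.2% and 27.8%). These shares were close to those of the brightness band. Tfdp2, a dimer partner of the E2F factors, and Cdk2 were higher by 0.81 and 0.56, and Myc and the D-type cyclin Ccnd3 differed by -1.15 and -0.60 (adjusted p from 2.5e-06 to 2.0e-05). Of 10 checkpoint and fork repair genes 2 were higher and 5 lower (20.0% and 50.0%). Hus1 differed by 0.43, and Rad17, Brca2 and Exo1 by -0.46, -0.40 and -0.34. Among 12 genes of chromatin copying Tonsl passed at 0.22 and Ssrp1 and Mms22l at -0.25 and -0.22 (8.3% higher and 16.7% lower). Leaving out 1 experiment gave 0 to 3 higher and 1 to 2 lower. Of 13 mitosis genes 3 were higher (Aurkb 0.43, Plk1 0.40 and Ccnb2 0.34) and Kif11 was lower at -0.31, shares of 23.1% and 7.7%. Mki67, the usual marker of proliferating cells, differed by -0.06 (adjusted p = 0.61), with 3 of 8 experiments higher.

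**Figure D5:**
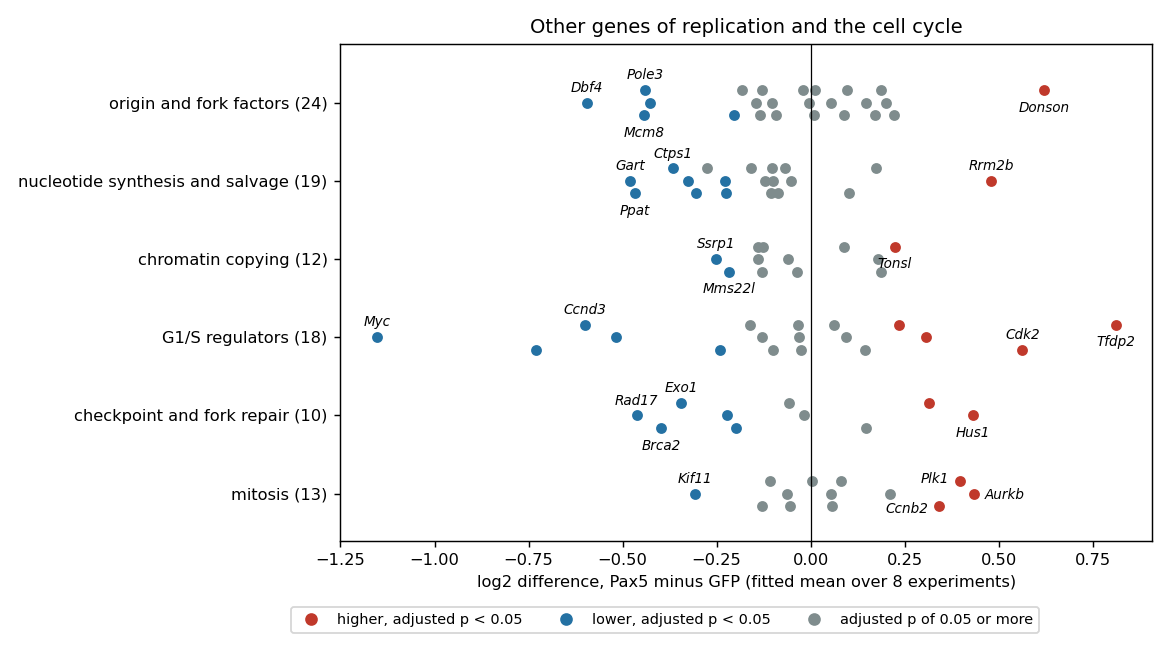
Fitted log2 difference, Pax5 minus GFP, of each gene in 6 lists outside the 49, with the number measured in brackets, coloured by call and spread vertically only to separate points. Genes named are up to 4 per list with the lowest p among those that passed. Among the nucleotide synthesis genes that passed, 7 lie to the left of 0 and Rrm2b alone to the right.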

How the data were processed

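RNA of 8 GFP and 8 Pax5 cultures was measured on 1-colour Affymetrix arrays. The authors deposited log2 expression values per transcript cluster, made with RMA in the Transcriptome Analysis Console (versions: not given in the sources used here). Scanner files were not used. Differences of RMA values can understate true ratios of dim probes, and the number of arrays limits precision.

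The groups were compared by lmFit and eBayes (limma 3.58.1 in R 4.3.3). Experiment entered the model as a fixed term, and p-values over 23188 clusters were adjusted by the Benjamini-Hochberg method and called under 0.05. The fit was also run on simulated data in which both arrays of an experiment shared an offset. In the deposited values such arrays move in opposite directions, so that run does not show how the fit behaves there. Single genes were also tested by exact sign flips over the 8 within-experiment differences (256 arrangements). No list was tested as a set. The 49 genes and all other lists were chosen with earlier results of these data known, and 7 roles were described separately. Full values are given for genes called with the same sign in 8 of 8 experiments, at most the 4 with the lowest p in each role, and for any difference of at least 0.5; other lists name at most 4 called genes by lowest p. Orc3, Orc4 and Orc5 were named after their values were seen, as were the per-experiment exceptions. The split of origin licensing into the Mcm ring and the Orc subunits is not among the 7 roles, and the difference between them was not tested.

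Arrays were paired by the experiment number in their titles. After removal of the group mean, the GFP and the Pax5 array of one number correlated at -0.75 to -0.70 over clusters and arrays of different numbers at -0.09 to 0.26. This opposite movement is a property of the deposited values, and its origin was not tested. Whether a common offset of an experiment's arrays was removed before deposit is not given in the sources; such a step would narrow the printed ranges and SDs but leave the within-experiment differences as they are. Promoter sequences are RefSeq's (GRCr8), while for the build behind the array annotation the sources used here name none. Alternatives were a fit without the block, median centring or quantile normalization of the arrays, a filter on the dimmest 30% of clusters, array weights, a trended and robust prior, a paired test per cluster, an adjusted p under 0.01 and leaving out each experiment.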

Additional observations from a re-analysis of the deposited data

Results flagged for a closer look

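In 86 sets of 8 arrays (43 genes in 2 groups), 2 held an array far from the other 7 by Dixon's test at the 95% level, where chance gives about 4.3. Cdc45 read 9.65 in the Pax5 array of experiment 8, while the next highest Pax5 array read 9.47 and the lowest 9.34. This is the experiment in which Cdc45 was higher rather than lower. Dut read 15.58 in the GFP array of experiment 1, while the next highest GFP array read 15.31 and the lowest 15.08. This is the experiment in which Dut was lower rather than higher.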

How the results depend on the processing

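The numbers of replication genes called higher and lower stayed between 9 and 18 and between 5 and 7 over 16 alternatives. Of the 20 called genes 13 kept their call throughout, 7 lost it somewhere (Mcm4, Mcm6, Orc1, Pola1, Pcna, Rfc3 and Rfc4) and 0 changed sign; of the 23 others 5 gained a call somewhere. Without the experiment block 18 genes were higher and 7 lower. That fit ignores the pairing. Same-numbered arrays correlate below 0, so it can understate the error of a difference, and its added calls carry less weight. The fit without the block also gave 2 higher polymerase genes, 2 higher E2F and cyclin E genes, 4 higher and 8 lower origin and fork factors, 2 higher nucleotide synthesis genes, and 3 higher and 5 lower chromatin copying genes.

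At an adjusted p under 0.01 the higher genes fell to 2 in origin licensing, 0 among polymerases and 0 in chromatin copying and to 1 in checkpoint and fork repair. The lower genes fell to 1 in the clamp and lagging strand group, 0 in chromatin copying and 3 in checkpoint and fork repair. The paired test per cluster gave 0 higher polymerase genes and 1 lower clamp and lagging strand gene, with Rfc3 at an adjusted p of 0.053. Leaving out the dimmest 30% gave 2 higher polymerase genes. Higher origin and fork factors numbered 2 under quantile normalization, median centring, the filter on dim clusters, array weights, the trended prior and the paired test. Higher nucleotide synthesis genes numbered 2 under quantile normalization, the filter on dim clusters and the paired test, and higher chromatin copying genes 2 under quantile normalization, that filter and the trended prior. Under quantile normalization Mki67 differed by 0.00059 in place of -0.06. The cause of these shifts was not tested.

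Leaving out 1 experiment at a time gave 2 to 4 higher origin licensing genes and 0 to 2 higher polymerase genes. It gave 1 to 4 higher origin and fork factors, 0 to 3 higher chromatin copying genes (3 without experiment 1, 0 without 2, 3, 5 or 6), 1 to 2 lower ones (1 without 1, 2, 7 or 8), 3 to 5 lower checkpoint and fork repair genes (3 without 5 or 6), and a median of -0.19 to -0.12 over nucleotide synthesis (-0.19 without experiment 1). Genes near 0 changed sign: Mcm10 ran from -0.0914 to 0.00714, Pole from -0.0543 to 0.00857, E2f1 from -0.0957 to 0.0443 and E2f7 from -0.0186 to 0.0186.

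Taking the lowest-mean cluster of a gene changed nothing, since each of the 43 genes had 1 cluster. Fold changes on RMA values have no depth to set their precision: the 95% intervals reached 0.13 to 0.24 in log2 on either side, and smaller changes of a single gene cannot be told from 0.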
